A study of Mus musculus with 6 samples.

Results

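The genes described are 35 macrophage and monocyte genes, taken by symbol from the gene counts of sorted fetal skin mast cells. All 35 had a row among the 55809 gene rows of the files, and all 35 were among the 16716 genes that passed the filter on low counts. The mice were of the C57BL6J strain, and the cells were sorted from skin at embryonic day 18.5. Control offspring came from dams left undisturbed, and prenatal stress offspring from dams that were held in tubes under a lamp of 200 W in 3 daily sessions of 30 minutes, starting on day 13.5 (design text) or day 13 (protocol) of gestation and ending on day 18. Dams were 8 to 10 weeks old. Each group had 3 libraries, each from a pool of 4 mice. Both sexes were used, and the number of litters behind a pool is not in the labels, so the p-values rest on pool-to-pool spread, which may be partly technical. The sort kept CD45+ cells with CD117 and ST2 on the surface and without F4/80 or CD64, the surface proteins encoded by Adgre1 and Fcgr1.

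Macrophages settle in skin before birth, take up dead cells, debris and iron-containing proteins through scavenger receptors, and depend for survival on signalling through the receptor CSF1R. Skin macrophages lie close to mast cells, and both are CD45+ cells that enzymatic digestion of skin sets free together. A sort gate acts on surface protein while RNA-seq counts RNA, so the 35 genes describe RNA of genes listed for macrophages in the sorted material. Which cells transcribed each gene, mast cells included, was not tested.

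The libraries held between 51710555 and 74735139 counts assigned to genes. Levels are in CPM, the counts of a gene scaled to a common library size with TMM factors. A positive log2 fold change means a higher level under prenatal stress; the number after ± is its standard error (SE), and adjusted p-values come from edgeR's quasi-likelihood test over all 16716 genes (Benjamini-Hochberg, threshold 0.05). Stress replicate 3 stood apart from stress replicates 1 and 2 in these genes, so results are given with and without it. It was singled out on the values of these same genes. P-values from the fit without it therefore describe stress replicates 1 and 2 only and are no evidence of a group difference. Markers of other cell types were present at lower sums than the macrophage and mast cell genes, and some moved with the groups. The 9 dendritic and Langerhans cell markers summed to at most 20.4 CPM in the control pools and 17.6 in the stress pools, with Cd207, Xcr1 and Clec9a under 1 CPM throughout. The 5 monocyte markers summed to 157 to 165 CPM in the control pools and 142 to 217 in the stress pools, and 1 of them, Chil3, was called higher. The 12 lymphoid markers summed to 57.1 to 68.1 CPM in the control pools and 82.6 to 96.7 in the stress group, above all controls in every stress pool. Of these, 8 were under 1 CPM in every library and 1, Il7r, was called higher. Il7r rose from a mean of 22.0 to 54.1 CPM, whereas 4 of the 6 lymphoid markers tested had negative log2 fold changes (median -0.24). The higher sum thus reflects Il7r and not the lymphoid markers as a set. Chil3 and Il7r are named after their values were seen. The 11 neutrophil markers summed to 47.9 to 142 CPM and 50.1 to 78.0 CPM, with 5 under 1 CPM in every library, and the 8 endothelial markers to 38.9 to 51.8 CPM and 37.6 to 55.9 CPM. The 18 mast cell markers summed to 62459 to 75088 CPM in the control pools and 90356 to 108819 in the stress pools, and 11 of them were called higher. Pigment and glial markers summed to 15.6 to 22.0 CPM in the controls and 29.4 to 73.4 in the stress group, with 4 of 7 called higher, and fibroblast markers to 77.3 to 101 CPM and 86.4 to 206 CPM. The 2 basophil markers summed to 182 to 214 CPM in the controls and 183 to 238 in the stress group, and 1 was called higher. The 6 erythroid markers summed to 8.73 to 18.6 and 6.11 to 8.01 CPM, below all controls in every stress pool. The 9 keratinocyte markers summed to at most 1.71 CPM in the controls and to 11.0, 1.78 and 1.12 in stress replicates 1, 2 and 3. The part of these other cells in the values below was not tested.

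The promoter sequences of the macrophage genes are shown first because PU.1, the transcription factor on which macrophage development depends, binds a purine-rich motif near many of their start sites. The RefSeq table of promoters (build GRCm38.p6, 250 bases before to 50 after each start) held 26 of the 35 genes. The letters GAGGAAG, taken as a PU.1 core and searched on both strands, occurred in the window of 11 of these 26 genes (42.3%), against 15.4% of all 27025 genes in the table. Among other macrophage genes 7 of 28 held it (25%), and among mast cell markers 3 of 16 (18.8%). The letters AGATAA, the core bound by GATA factors, occurred in 3 of the 26 genes (11.5%), against 12.7% of all genes and 6 of 16 mast cell markers (37.5%). The motifs can overlap, since one ends and the other begins with the letters AG, and a match describes the sequence only. Below are the 120 bases before the start of the 6 genes with a GAGGAAG match in that stretch. The 3 genes whose level was called different between groups are also shown and had none there. Of these 3, Axl held a match outside the stretch, 131 bases before its start, and is among the 11. Capitals mark the match, written as CTTCCTC where it lies on the opposite strand. The reads' build is not settled in the sources used here, so these coordinates belong to the RefSeq sequences only.
Fcgr1 (chr3:96293970-96294089, minus strand): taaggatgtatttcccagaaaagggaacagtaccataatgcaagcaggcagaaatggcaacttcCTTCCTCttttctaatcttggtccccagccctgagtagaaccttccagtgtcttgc
Mrc1 (chr2:14229294-14229413, plus strand): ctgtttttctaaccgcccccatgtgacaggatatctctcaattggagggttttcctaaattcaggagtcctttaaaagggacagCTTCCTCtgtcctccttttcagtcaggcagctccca
Trem2 (chr17:48346281-48346400, plus strand): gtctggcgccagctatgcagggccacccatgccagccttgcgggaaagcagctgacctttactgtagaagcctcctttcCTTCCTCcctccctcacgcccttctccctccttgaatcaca
Pf4 (chr5:90772315-90772434, plus strand): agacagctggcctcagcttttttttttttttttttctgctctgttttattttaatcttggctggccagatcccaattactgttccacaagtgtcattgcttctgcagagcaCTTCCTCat
F13a1 (chr13:37050245-37050364, minus strand): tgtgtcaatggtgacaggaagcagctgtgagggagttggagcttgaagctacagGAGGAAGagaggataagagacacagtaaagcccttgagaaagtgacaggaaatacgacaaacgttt
Cbr2 (chr11:120732022-120732141, minus strand): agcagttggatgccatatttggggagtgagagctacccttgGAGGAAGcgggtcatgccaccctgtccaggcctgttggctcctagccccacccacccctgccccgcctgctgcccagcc
Cx3cr1 (chr9:120068297-120068416, minus strand): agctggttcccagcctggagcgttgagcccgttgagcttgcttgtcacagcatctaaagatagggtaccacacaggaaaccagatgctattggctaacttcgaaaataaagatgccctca
Cd68 (chr11:69666171-69666290, minus strand): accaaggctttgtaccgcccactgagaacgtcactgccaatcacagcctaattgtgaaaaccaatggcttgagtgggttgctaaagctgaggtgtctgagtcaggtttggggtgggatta
Axl (chr7:25788734-25788853, minus strand): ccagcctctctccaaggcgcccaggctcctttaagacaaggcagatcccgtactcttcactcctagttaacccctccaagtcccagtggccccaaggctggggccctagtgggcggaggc

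The 35 genes together made up a measurable part of every library. They took 1.65%, 2.02% and 1.88% of gene counts in control replicates 1, 2 and 3, and 1.21%, 1.04% and 1.77% in stress replicates 1, 2 and 3. On the CPM scale their sum was 16031, 18723 and 18449 in the control pools and 12417, 11046 and 18430 in the stress pools. Stress replicates 1 and 2 were thus at 0.70 and 0.62 of the control mean, below all controls, while stress replicate 3 was at 1.04 of it and between the controls. The group means were 17734 ± 1481 and 13964 ± 3927 CPM (SD, n = 3 pools each), so the spread within the stress group exceeded the distance between the groups. In bulk samples fewer macrophages, less RNA per macrophage and a change in other cells that transcribe these genes cannot be told apart. The mast cell markers took the reverse order in the stress group: their sum was highest in stress replicate 2, at 108819 CPM, and lowest in stress replicate 3, at 90356. The part of the mast cell values in this was not tested.

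**Figure D1:**
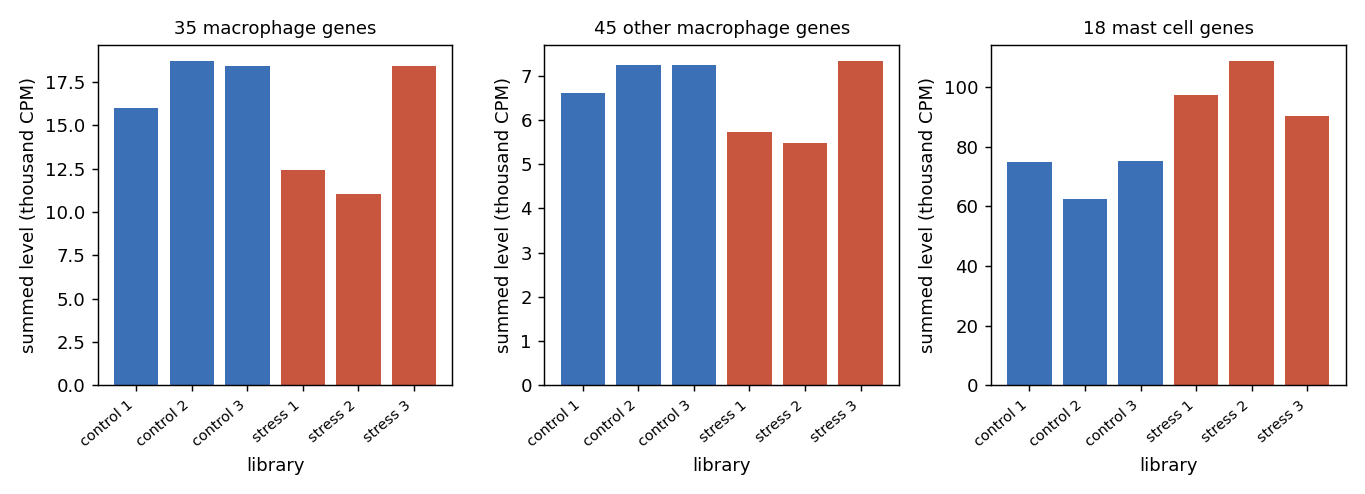
Summed level (bars) in each of the 6 libraries of the 35 macrophage genes, 45 other macrophage genes and 18 mast cell genes; blue is control and red is prenatal stress. The 35 genes sum to 12417 and 11046 CPM in stress replicates 1 and 2 and to 18430 in stress replicate 3, which lies between the controls.

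Levels were compared per kilobase of exon, with all annotated exons of a gene merged, so the order depends on that choice of length. No other length was tried. The most abundant of the 35 was then Lyz2, lysozyme, at a control mean of 787 CPM per kb. Apoe, the lipid carrier apolipoprotein E, followed at 751, then Selenop, the selenium carrier selenoprotein P, at 482, and Pf4, the chemokine platelet factor 4, at 436. C1qb was at 431 CPM per kb, F13a1 at 386 and Mrc1 at 360. At the other end were Tlr4 at 6.36, Timd4 at 5.60, Marco at 5.19 and Vsig4 at 0.254 CPM per kb. Many of the leading genes are known from resident tissue macrophages, though Lyz2 is also a gene of monocytes and neutrophils. Timd4, Marco and Vsig4, known from macrophages of the peritoneum, spleen and liver, were at the bottom. Other genes of the list were low as well, with Mertk at 13.7, Axl at 10.3 and Trem2 at 6.44 CPM per kb. The order was therefore not read as a sign of a tissue. The sort antigens differed on this scale, Adgre1 being at 126 and Fcgr1 at 30.5 CPM per kb.

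Macrophage genes moved together across the libraries. Stress replicate 3 had the highest stress level in 33 of 35 genes (94.3%), an order that 35.4% of all genes tested showed. Stress replicate 3, then 1, then 2 was the order in 29 of 35 (82.9%), against 17.5% of all genes. Both stress replicates 1 and 2 lay below all 3 controls in 28 of 35 (80%), against 24.7% of all genes. The order extended to the controls, where replicate 1 was lowest in 32 of 35 (91.4%), against 33.1%. The genes share libraries and were listed for the same cell type, so these counts describe one common movement and are not independent. Against the controls, stress replicate 3 was above all controls in 12 genes (34.3%), between them in 15 (42.9%) and below them in 8 (22.9%). Over all genes these shares were 32.9%, 34.3% and 32.7%, so this split was not far from the background.

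**Figure D2:**
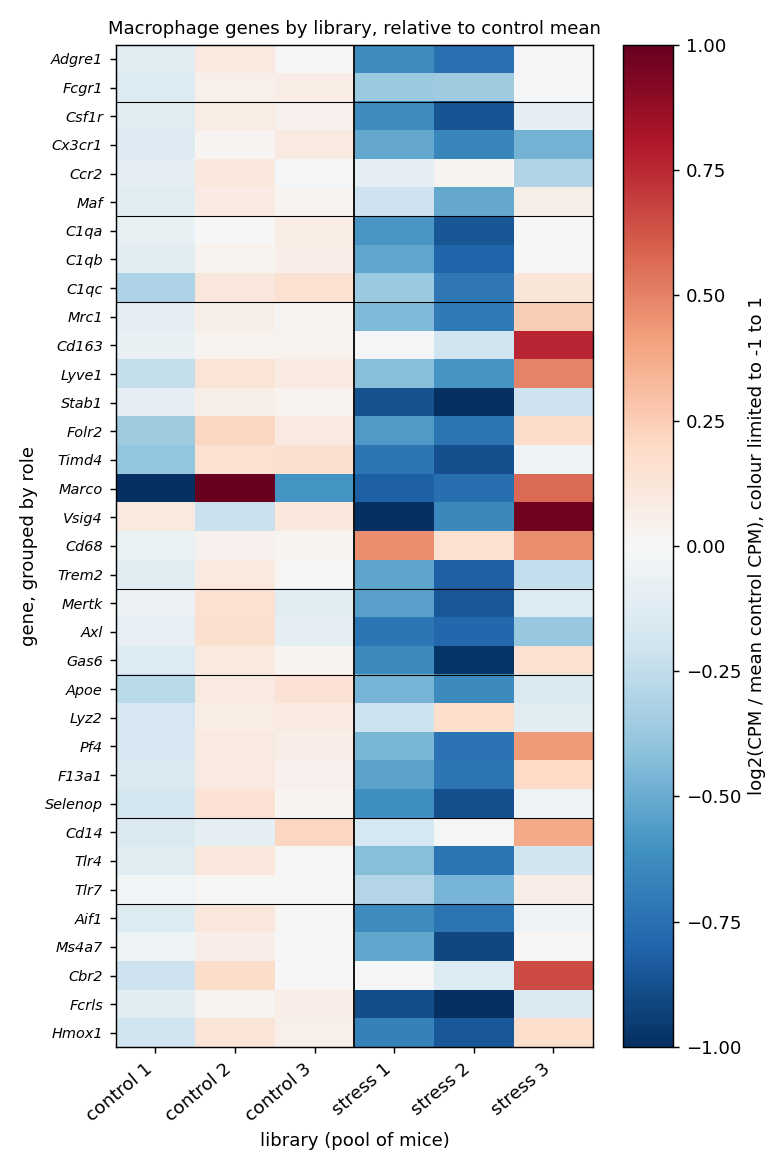
Level of each of the 35 genes (rows, grouped by role) in each library (columns) as log2 of the ratio to the control mean, with colour limited to -1 to 1. Most rows are blue in stress replicates 1 and 2 and near white or red in stress replicate 3; Cd68, Lyz2 and Ccr2 depart from this.

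Prenatal stress against control was tested for each gene. Of the 35 genes, 3 passed (8.57%), against 6.19% of all genes tested: 2 fell (Cx3cr1 and Axl), 1 rose (Cd68) and 32 did not pass. By direction that is 5.71% lower and 2.86% higher, against a background of 1.85% and 4.34%. The median log2 fold change of the 35 was -0.37, against -0.0039 over all genes, and 31 of 35 were negative. An unadjusted p under 0.05 was found in 16 of 35 (45.7%), against 24.8% of all genes. The stress libraries lay all below the controls in 7 of the genes, where the background is 14.5%, and all above them in 1, where it is 16.0%.

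Leaving out stress replicate 3 changed the count more than leaving out any other library. Without it 27 of the 35 genes were called lower (77.1%) and 1 higher, against 7.69% and 7.76% of the 17136 genes tested in that fit, and the median was -0.65. The pool was singled out on these same genes, so these calls are no independent support for a difference between the groups. Without any one of the other libraries, 1 or 2 genes were called lower. The 27 do not include Ccr2, Cd163, Marco, Vsig4, Lyz2, Cd14 and Cbr2, which did not pass, or Cd68, which was called higher. A fit on 2 stress pools says how these differed from the controls. Stress replicate 3 lay within or above the control range in 27 of the 35 genes. It was below that range in 8 (22.9%), against 32.7% of all genes.

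Genes of the surface antigens excluded by the sort were present in every library. Adgre1, an adhesion receptor that is the usual macrophage marker of mice, was at 380, 438 and 410 CPM in the control pools, against 266, 244 and 404 in stress replicates 1, 2 and 3. Stress replicates 1 and 2 were below all controls and the third was among them, so the groups overlapped (log2 fold change -0.43 ± 0.17, edgeR adjusted p = 0.161). Fcgr1, the high-affinity receptor for immunoglobulin G, was at 71.7, 81.7 and 83.2 CPM in the control pools, against 61.1, 61.7 and 78.0 in the stress pools. It had the same overlap (-0.24 ± 0.10, edgeR adjusted p = 0.194). Without stress replicate 3, singled out on these same genes, the log2 fold changes were -0.69 ± 0.08 for Adgre1 and -0.37 ± 0.07 for Fcgr1. Of the antigens on which the cells were kept, Kit (CD117) was at 1818 ± 158 and 2126 ± 220 CPM (SD, n = 3 pools each) and Ptprc (CD45) at 453 ± 9.35 and 491 ± 26.1, and neither passed (edgeR adjusted p = 0.187 and 0.278). Il1rl1 (ST2) rose (0.45 ± 0.10, edgeR adjusted p = 0.0312), a call that did not hold in any of the 5 fits lacking a library other than stress replicate 3 (adjusted p between 0.0708 and 0.113).

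Among the receptors that receive signals from the tissue, the fractalkine receptor Cx3cr1 had the smallest adjusted p of the 35. It was at 395, 439 and 457 CPM in the control pools, against 302, 274 and 310 in the stress pools, and here all 3 stress pools were below every control. Cx3cr1 fell by 0.54 on the log2 scale (SE 0.08, edgeR adjusted p = 0.00912). The call held in every fit that left out 1 library and in each of the other settings tried. As a share of the 35-gene sum, Cx3cr1 made up 2.46%, 2.35% and 2.48% in the control pools and 2.43% and 2.48% in stress replicates 1 and 2, but 1.68% in stress replicate 3. It was thus in step with the other macrophage genes in the first 2 stress pools and lower than them in the third pool.

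Csf1r, the receptor for the macrophage growth factors CSF1 and IL-34, was at 1114, 1279 and 1252 CPM in the control pools, against 786, 669 and 1143 in the stress pools. The third stress pool again overlapped the controls (-0.49 ± 0.17, edgeR adjusted p = 0.122). Without that pool, singled out on these same genes, the log2 fold change of Csf1r was -0.74 ± 0.09. In the annotation 15.1% of the exon length of Csf1r lies over exons of a gene on the opposite strand. How strand was treated in counting is not given in the sources used here. Maf, a transcription factor of resident macrophages, was at 240, 274 and 264 CPM in the control pools, against 224, 182 and 269 in the stress pools (-0.20 ± 0.13, edgeR adjusted p = 0.356). Ccr2, the chemokine receptor that draws monocytes into tissue, did not follow the other genes. It was at 85.2, 97.3 and 89.4 CPM in the control pools, against 85.3, 92.5 and 73.6 in the stress pools, lowest where most of the genes were highest in the stress group (-0.11 ± 0.09, edgeR adjusted p = 0.466).

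Among ligands of these receptors, 1 of the 6 tested was called. Csf1 rose from 73.8, 69.2 and 81.0 CPM in the control pools to 155, 163 and 181 in the stress pools (1.15 ± 0.08, edgeR adjusted p = 5.78e-04), and all stress pools were above all controls. Its level was highest in stress replicate 3, the pool with the most macrophage RNA in that group, and which cells transcribed it was not tested. Il34, the other CSF1R ligand, was under 1 CPM in every library and was not tested.

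The complement genes C1qa, C1qb and C1qc encode the 3 chains of C1q, the recognition protein of the classical complement pathway, and they moved nearly in parallel. C1qa was at 339, 356 and 377 CPM in the control pools, against 239, 197 and 353 in the stress pools. C1qb was at 437, 480 and 491 CPM, against 328, 269 and 468 in the stress pools. C1qc was at 318, 426 and 437 CPM, against 304, 239 and 428 in the stress pools. In each chain stress replicates 1 and 2 lay below all controls and the third between them. Their log2 fold changes were -0.44, -0.40 and -0.28 (edgeR adjusted p = 0.169, 0.189 and 0.414). Without stress replicate 3, singled out on these same genes, they were -0.72, -0.66 and -0.54.

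The scavenger and endocytic receptors split. Stab1, the scavenger receptor stabilin-1, was at 2041, 2272 and 2239 CPM in the control pools, against 1196, 933 and 1894 in the stress pools. Every stress pool was below every control, and the log2 fold change was the lowest of the 35, but the call did not pass (-0.70 ± 0.22, edgeR adjusted p = 0.0871). Without stress replicate 3, singled out on these same genes, the log2 fold change of Stab1 was -1.04 ± 0.11. Mrc1, the mannose receptor CD206, was at 2159, 2387 and 2340 CPM in the control pools, against 1693, 1408 and 2729 in the stress pools, so that stress replicate 3 was above all controls (-0.24 ± 0.21, edgeR adjusted p = 0.508). Trem2, a lipid-sensing receptor, was at 29.3, 34.1 and 32.2 CPM in the control pools, against 22.1, 18.1 and 26.9. in the stress pools Its groups did not overlap, and its adjusted p lay just above the threshold (-0.51 ± 0.13, edgeR adjusted p = 0.0539).

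Cd163 and Lyve1 were above all controls in stress replicate 3. Cd163, which takes up haemoglobin bound to haptoglobin, was at 153, 165 and 166 CPM in the control pools, against 159, 141 and 274 in the stress pools. Stress replicate 1 was within the control range, stress replicate 2 below it and stress replicate 3 above it (0.24 ± 0.21, edgeR adjusted p = 0.512). Lyve1, a hyaluronan receptor of perivascular macrophages and of lymphatic vessels, was at 402, 516 and 500 CPM in the control pools, against 352, 313 and 665 in the stress pools (-0.09 ± 0.25, edgeR adjusted p = 0.858). Endothelial markers were present in all libraries, as given above, and their part in the Lyve1 level was not tested. Folr2, a folate receptor of resident macrophages, was at 56.7, 83.9 and 77.4 CPM in the control pools, against 49.1, 43.7 and 82.6 in the stress pools (-0.31 ± 0.23, edgeR adjusted p = 0.436). In the annotation 63.1% of the exon length of Folr2 lies over exons of a gene on the opposite strand, so its value is uncertain.

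Cd68, a lysosomal membrane glycoprotein, was the one gene of the 35 that rose. It was at 148, 160 and 158 CPM in the control pools, against 214, 173 and 214 in the stress pools, above every control in every stress pool (0.37 ± 0.09, edgeR adjusted p = 0.0449). It no longer passed in the 4 fits that left out a control or stress replicate 1, with adjusted p from 0.112 to 0.141, nor with library totals as the only scaling (0.25, adjusted p = 0.105). Stress replicate 1 was at the level of stress replicate 3, although the 35-gene sum was 12417 CPM in the one and 18430 in the other. Timd4, a phosphatidylserine receptor, ran from 9.33 to 13.6 CPM in the control pools and from 6.62 to 11.9 in the stress pools. Marco, a receptor for bacterial surfaces, was uneven in the control pools, at 2.94, 20.4 and 6.62 CPM, with 5.67, 5.92 and 14.8 in the stress group (-0.17 ± 0.63, edgeR adjusted p = 0.896). Vsig4, a complement receptor, had 5 to 41 counts per library.

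The TAM receptors Mertk and Axl are kinases by which macrophages bind and engulf dying cells through the bridging ligands Gas6 and Pros1. Axl was at 49.3, 58.3 and 48.5 CPM in the control pools, against 31.6, 30.1 and 39.99 in the stress pools, with all stress pools below all controls. Axl fell by 0.62 on the log2 scale (SE 0.11, edgeR adjusted p = 0.0212). It no longer passed in the fits that left out control replicate 2, stress replicate 1 or stress replicate 2 (adjusted p = 0.0944, 0.0694 and 0.082). Mertk was at 57.3, 66.0 and 55.2 CPM in the control pools, against 40.8, 33.01 and 54.1. in the stress pools Stress replicate 3 lay just under the lowest control, and it did not pass (-0.48 ± 0.16, edgeR adjusted p = 0.101). Gas6 was at 234, 277 and 263 CPM in the control pools, against 166, 130 and 287 in the stress pools, where the third pool was the highest of all 6 (-0.41 ± 0.24, edgeR adjusted p = 0.329).

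Of the secreted proteins F13a1, the catalytic subunit of coagulation factor XIII, was at 2357, 2767 and 2675 CPM in the control pools, against 1789, 1578 and 2985 in the stress pools, and was in every library the largest contributor to the 35-gene sum. Pf4 was at 279, 334 and 330 CPM in the control pools, against 229, 189 and 423. in the stress pools Both were above all controls in stress replicate 3 and below all of them in the other stress pools (F13a1 -0.30 ± 0.21, edgeR adjusted p = 0.41; Pf4 -0.16 ± 0.25, 0.737). Apoe was at 1330, 1713 and 1776 CPM in the control pools, against 1163, 1036 and 1450 in the stress pools (-0.40 ± 0.14, edgeR adjusted p = 0.125). Selenop was at 1205, 1509 and 1391 CPM in the control pools, against 895, 743 and 1323 in the stress pools (-0.47 ± 0.19, edgeR adjusted p = 0.163), with 15.4% of its exon length over exons of a gene on the opposite strand. In Apoe and Selenop the third stress pool was within the control range.

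Lyz2 did not share the common order. It was at 923, 1087 and 1095 CPM in the control pools, against 891, 1168 and 956 in the stress pools (-0.04 ± 0.11, edgeR adjusted p = 0.85), and stress replicate 2, lowest for most of the 35 genes, was here the highest of all libraries. Its share of the 35-gene sum was between 5.76% and 5.93% in the control pools and 7.18%, 10.6% and 5.19% in stress replicates 1, 2 and 3. Lyz2 is also a gene of monocytes and neutrophils. The summed monocyte markers were highest in stress replicate 2 too, at 217 CPM against 147 and 142 in stress replicates 1 and 3, and their part in the Lyz2 level was not tested. In the annotation 5.96% of the 75-base stretches of Lyz2 transcripts occur in the neighbouring lysozyme gene Lyz1.

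The pattern recognition receptors differed from each other. Cd14, which presents bacterial lipopolysaccharide to TLR4, was at 266, 275 and 342 CPM in the control pools, against 260, 292 and 382 in the stress pools (0.08 ± 0.15, edgeR adjusted p = 0.779), and stress replicate 2 was between the controls. Tlr4 was at 32.5, 38.2 and 35.4 CPM in the control pools, against 26.3, 21.3 and 30.7 in the stress pools, with all stress pools below all controls (-0.44 ± 0.12, edgeR adjusted p = 0.0724). Tlr7, a sensor of single-stranded RNA, was even in the control pools, at 59.5, 61.3 and 61.4 CPM, and was at 49.4, 44.0 and 63.7 in the stress pools (-0.21 ± 0.12, edgeR adjusted p = 0.299).

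Of the remaining genes, Fcrls, an Fc receptor-like gene of resident macrophages, had the second lowest fold change of the 35. It was at 313, 344 and 353 CPM in the control pools, against 182, 161 and 305 in the stress pools. Every stress pool was below every control (-0.64 ± 0.20, edgeR adjusted p = 0.0963). Without stress replicate 3, singled out on these same genes, the log2 fold change of Fcrls was -0.97 ± 0.08. Aif1, the cytoskeletal protein IBA1, and Ms4a7, a membrane protein, were at 60.0 ± 5.12 and 59.9 ± 2.45 CPM in the control pools and 44.3 ± 11.9 and 44.7 ± 14.5 in the stress group (SD, n = 3 pools each), with the third pool at the control level in both. Hmox1, which breaks down haem, was at 415, 520 and 495 CPM in the control pools, against 299, 265 and 540 in the stress pools (-0.37 ± 0.23, edgeR adjusted p = 0.358). Cbr2, a carbonyl reductase, followed Cd163 instead: it was at 15.8, 20.7 and 18.2 CPM in the control pools, against 18.1, 16.6 and 28.7 in the stress pools (0.22 ± 0.19, edgeR adjusted p = 0.534). In the annotation 8.31% of the 75-base stretches of Cbr2 transcripts occur in another gene.

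**Figure D3:**
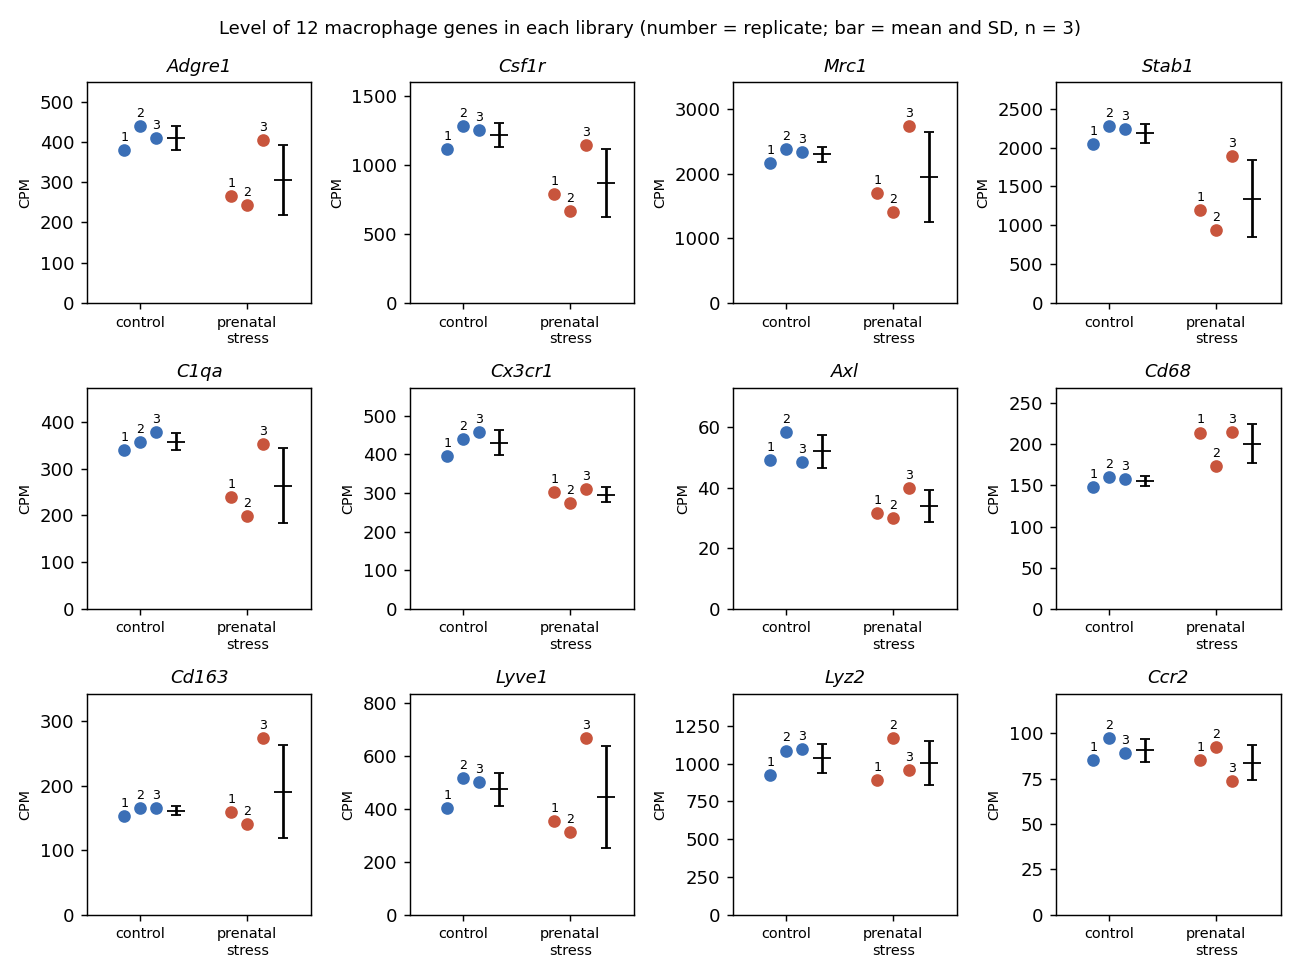
CPM of 12 of the genes in each library (numbered points; blue control, red prenatal stress), with the mean and SD of each group (n = 3 pools). Cx3cr1 and Axl are lower and Cd68 is higher in all stress pools, while in Adgre1, Csf1r and C1qa stress replicate 3 reaches the controls and in Mrc1, Cd163 and Lyve1 it exceeds them.

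Dividing each gene by the 35-gene sum of its library gives its share, which was compared between the groups. In 24 of 35 genes the shares of the groups overlapped. Overlap does not mean that a gene kept step with the others: Lyz2, Ccr2 and Cx3cr1 are among the 24. In 6 genes the share was lower in all stress pools: Stab1, Fcrls, Csf1r, Adgre1, Selenop and Aif1. For Adgre1 the gap was small, from 2.22% in control replicate 3 to 2.20% in stress replicate 2. Stab1 made up 12.7%, 12.1% and 12.1% of the sum in the control pools and 9.63%, 8.45% and 10.3% in stress replicates 1, 2 and 3. Csf1r made up 6.95%, 6.83% and 6.79% and then 6.33%, 6.06% and 6.20%. The share was higher in all stress pools for 5 genes: Cd163, Lyve1, Cd68, Cd14 and Cbr2. For Cd163 it went from 0.956%, 0.883% and 0.897% in the control pools to 1.28%, 1.27% and 1.49% in the stress pools. These are descriptions of shares that sum to a whole, with no test. Over all genes, 0.993% had a level relative to the 35-gene sum that was lower in all stress pools and 15.3% one that was higher; the sum itself was lower in 2 of the stress pools.

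A further fit took the mean log2 level of 43 other macrophage genes, none of them among the 35, as a covariate; it adjusts each gene by its own slope and is not a test of the shares. In it 4 of the 35 genes were called higher and 2 lower, against 2.08% and 0.646% of all genes. The 4 were Cd163 (0.66 ± 0.09, edgeR adjusted p = 0.00373), Cbr2 (0.63 ± 0.08, adjusted p = 0.00328), Cd68 (0.48 ± 0.09, adjusted p = 0.026) and Lyve1 (0.43 ± 0.07, adjusted p = 0.0143). Lyve1 had been at -0.09 without the covariate, and Mrc1 and F13a1 also changed sign, to 0.17 and 0.13, without passing. The 2 were Cx3cr1 (-0.44 ± 0.09, edgeR adjusted p = 0.0301) and Axl (-0.40 ± 0.09, adjusted p = 0.0416). The shares of Cx3cr1 and Axl overlapped between the groups, and none of the 6 genes with a lower share was called lower in this fit. For the other 29 genes no difference passed, the median of the 35 moved from -0.37 to -0.03, and the number of negative fold changes from 31 to 19. The sort antigen genes were at -0.07 ± 0.07 (Adgre1) and -0.03 ± 0.07 (Fcgr1). Stab1 (-0.28 ± 0.11, edgeR adjusted p = 0.213) and Pf4 (0.35 ± 0.08, 0.0613) did not pass. The covariate ranked the libraries exactly as the 35-gene sum did, so the move of the median restates that the genes moved together. The covariate was lower in stress replicates 1 and 2 than in every control and so shares part of the group difference. In Cd163, Cbr2 and Lyve1 stress replicate 3 was the highest of all libraries. Whether their calls depend on that pool was not tested.

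**Figure D4:**
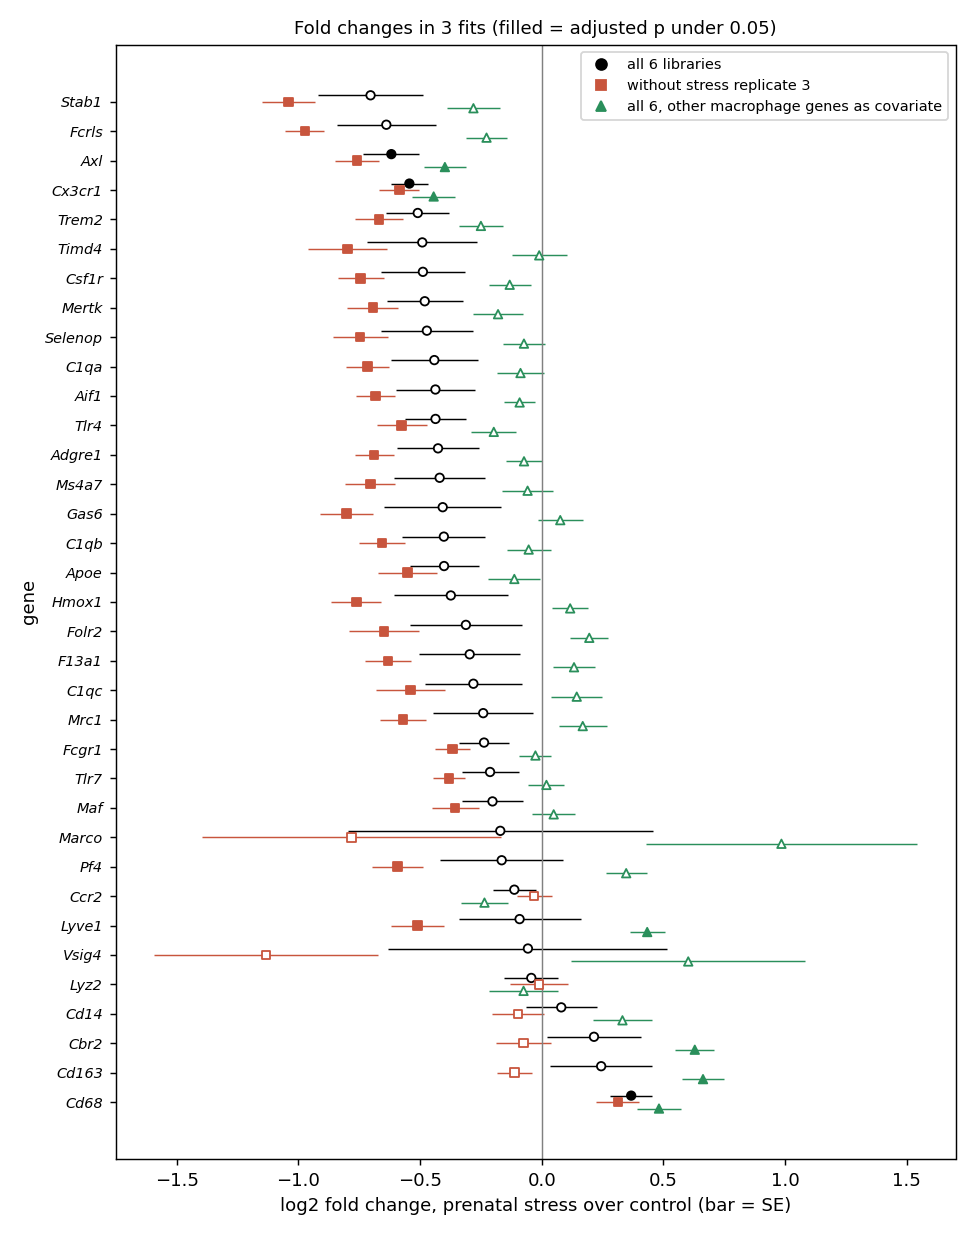
Log2 fold change (prenatal stress over control, bars are SE) of the 35 genes in the fit of all 6 libraries (black), without stress replicate 3 (red) and with other macrophage genes as a covariate (green); filled points passed an adjusted p of 0.05. Red points are filled for 28 genes, black for 3, and green for Cd163, Cbr2, Cd68, Lyve1, Cx3cr1 and Axl. The red fit leaves out a pool singled out on these same genes.

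Other macrophage genes shared part of the order of the stress pools. Of 45 listed, 43 were tested; 4 were lower, 2 higher and 37 did not pass, where 1.85% of all genes were called lower and 4.34% higher. Their median log2 fold change was -0.26 and 39 of 43 were negative, against a median of -0.0039 and 50.8% negative over all genes. Stress replicate 3 was the highest stress pool in 37 of 43 (86.0%), against 35.4% of all genes. The full order of stress replicate 3, then 1, then 2 was less common, in 24 of 43 (55.8%). It was found in 29 of the 35 genes (82.9%) and in 17.5% of all genes. The genes that fell were Tmem119 (-0.60), Gpr34 (-0.57), Itgb5 (-0.53) and Adap2 (-0.51), of which Tmem119 and Gpr34 are known as genes of microglia (edgeR adjusted p from 0.0214 to 0.0424). Cd33, a sialic acid-binding receptor, rose from 172 ± 6.53 to 219 ± 8.80 CPM (SD, n = 3 pools each; log2 fold change 0.34 ± 0.06, edgeR adjusted p = 0.0157). Of the most abundant, the endocytic adaptor Dab2 and the lysosomal protease Lgmn were at 1098 and 693 CPM in stress replicate 3, against 606 and 389 in stress replicate 2, and did not pass. The inhibitory receptor Sirpa and the protease Ctss were at 529 ± 13.8 and 351 ± 19.1 CPM in the control pools and 453 ± 56.5 and 287 ± 31.0 in the stress group (SD, n = 3 pools each), all stress pools below all controls, and did not pass. Tyrobp, a signalling adaptor that mast cells share with macrophages, was above all controls in every stress pool, at 612, 620 and 653 CPM against 557, 538 and 576, and did not pass (0.17 ± 0.06, edgeR adjusted p = 0.115).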

How the data were processed

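RNA was sequenced from mast cells sorted from fetal skin, 3 libraries per group. The authors deposited raw counts of reads per gene symbol, not normalized, 1 table per library. The submitters' processing notes list FastQC, STAR 2.4 and HTSeq 0.9.1, and 2 builds (GRCm39, mm10) without saying which was used for what. Strand setting and annotation: not given in the sources used here. The 5 rows that name no gene held 18.6% to 20.3% of reads tallied and were left out. Genes were filtered with filterByExpr (minimum count 10) and tested with edgeR 4.0.16 (R 4.3.3; TMM, glmQLFit, glmQLFTest, no covariate). Exon lengths (all annotated exons of a gene merged), shared 75-base stretches and overlaps came from GENCODE M21. The 35 genes and all lists were chosen with earlier results of these data known. Beside the 35, the text names other macrophage genes that passed (up to 6) or were among the 6 with the highest CPM, ligands that passed, and the genes of the sort antigens; Il34, Chil3 and Il7r were chosen after their values were seen. The fit was tested on simulated data. The alternatives were other scalings, filters, DESeq2 1.42.0, limma-voom (limma 3.58.1), a replicate block, the covariate and each library left out. One of the other macrophage genes that the naming rule would give is not reported here.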

Additional observations from a re-analysis of the deposited data

How the results depend on the processing

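The number of the 35 genes called lower was 2 with all libraries, 8 with library totals as the only scaling, 15 with no filter and 8 with DESeq2, and from 1 to 27 when 1 library was left out. The shares of all genes called lower were 1.85%, 9.16%, 2.77% and 4.34%, and from 0.135% to 7.69% with a library left out. With the covariate 0.646% of all genes were called lower. The number called higher was 1, became 0 with library totals or the replicate block and 4 with the covariate, and was 0 to 1 with a library left out. The shares of all genes called higher were 4.34%, 3.31% (library totals), 2.81% (block), 2.08% (covariate) and 3.84% (no filter). With a library left out they ran from 0.981% to 7.76%. These shares are also the background for the 2 lists that follow. Of the other macrophage genes, 4 were called lower with all libraries, 14 with library totals, 16 with no filter and 9 with DESeq2. With a library left out, 0 to 28 were called lower. With the covariate 0 were, but the covariate is the mean of these same genes, so that count is no result about them. With all libraries 2 were called higher, and 0 to 2 with a library left out. Of the ligands 1 was called higher, 2 with no filter and 4 with the covariate, 1 to 2 with a library left out, and 0 to 1 were then called lower. With the covariate, which ranked the libraries as the 35-gene sum did, the negative fold changes among the 35 genes went from 31 to 19. Of the genes that changed sign, Lyve1 passed (0.43) and the others did not. Library totals moved the median of all genes to -0.12. All genes called were 1035, 2085 with library totals, 1933 with no filter, 1989 with DESeq2, 622 with the block, 456 with the covariate, and 196 to 2647 with a library left out; library totals made 26.5% of calls higher, against 70.05%. The causes of these changes were not tested. Deviations of same-numbered libraries from their group means had correlations of 0.0954, -0.02 and 0.0684. With 3 libraries per group this does not settle whether they share more than a number. With the replicate block 2 of the 35 genes were lower and 0 higher, and Cd68 did not pass (0.36, adjusted p = 0.0751). Vsig4, at 5 to 41 counts, is limited by depth.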
